A study of Mus musculus with 1 sample.

Results

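Macrophage marker genes were examined in RNA of ovarian surface epithelial cells from mice, to show which of their transcripts were measured beside those of the epithelium. They were 10 genes, namely Csf1r, Adgre1, Cd68, Lyz2, Fcgr3, Mrc1, Ctss, Tyrobp, Fcer1g and Cd14, taken from 18193 genes that had a probe set with a single gene symbol. Every probe set whose only symbol was a member was used, which gave 12 of 34945 named probe sets. No probe set with several symbols included a member. The members were chosen with their values on this array known, so their levels are a description and carry no test.

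The ovary is covered by a single sheet of epithelium related to the mesothelium of the body cavity. The sample was total RNA from these cells of wild-type mice aged 3 months, labelled with biotin and hybridised to an Affymetrix mouse expression array. The series design names a set of mouse genotypes compared with each other, and only this 1 wild-type sample was analysed here. How many mice it came from, and how the cells were taken from the ovary, is not stated in the labels. With 1 array, no value has a replicate error, and no comparison between conditions was made. In a mixed preparation, fewer cells of a type and less RNA per cell cannot be told apart.

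Macrophages are phagocytes that live in almost every tissue, the ovary included, where they surround follicles and clear regressing corpora lutea. Their survival depends on the receptor for macrophage colony-stimulating factor, encoded by Csf1r. They recognise antibody-coated particles through Fc receptors, which signal through small adaptor proteins that carry an activation motif called ITAM, and they digest what they take up in lysosomes. Several of the genes used to mark them are also active in other cells: neutrophils make Lyz2, Fcgr3, Tyrobp, Fcer1g and Cd14, and dendritic cells make Ctss.

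A probe set was counted as above background when its intensity exceeded 46.5, which is 5.54 on the log2 scale. The limit is the 95th percentile over 126 probe sets of 4 families with no expected role in the ovary (receptors for odour, pheromones and bitter taste, and proteins of the hair shaft). Their intensities ran from 7 to 125 with a median of 13. Of the 10 members, 9 had a probe set above the limit, against 62.8% of all 18193 genes. Members with 1 probe set passed in 8 of 9 cases, against 47.3% of all genes with 1 probe set. The median level of the members' brightest probe sets was 8.04 on the log2 scale, and that of all genes was 7.06. Probe sets of different genes bind with different affinity, so these medians rank no gene against another, and nothing is read from the counts about the members as a group.

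**Figure D1:**
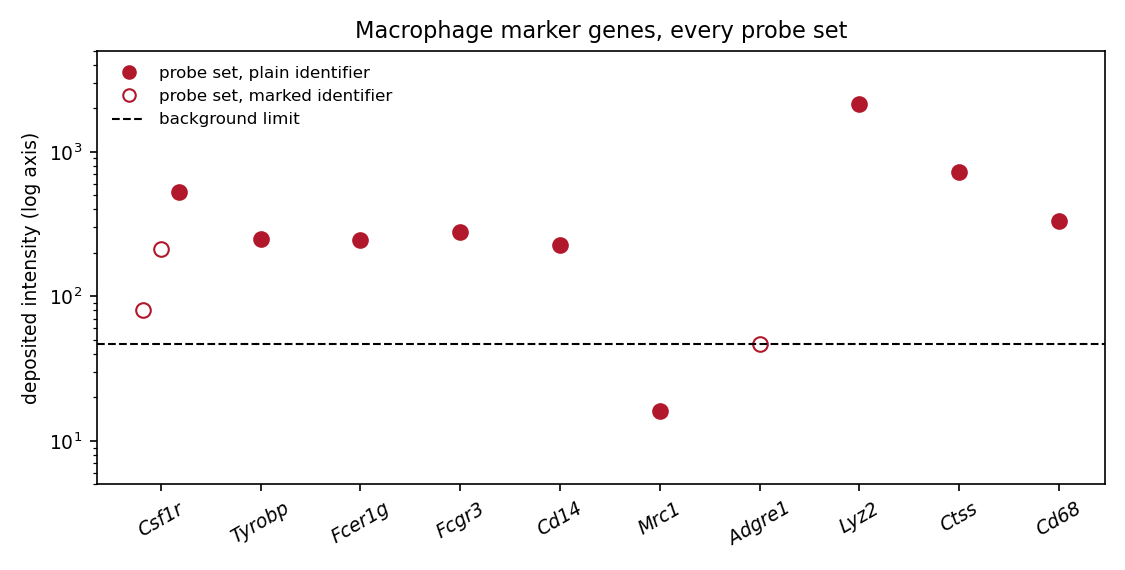
Deposited intensity on a log axis of every probe set of the 10 macrophage marker genes in the wild-type sample, with 1 point per probe set. Open points have identifiers that mark several transcripts of a gene or shared probes, and the dashed line is the background limit of 46.5. Mrc1 lies below the line at 16, Adgre1 lies on it at 47, and the other members have a point well above it.

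The CSF1 receptor was above the limit on all of its probe sets. Csf1r, the tyrosine kinase receptor for the CSF1 and IL34 ligands, had intensities of 527, 214 and 80 on its 3 probe sets. All 3 lay above the limit, with an SD of 1.36 on the log2 scale between them, which is a spread between probes and not a replicate error. The brightest was 11.3 times the limit, and no background probe set reached it. The lowest was 1.72 times the limit, and 3 of the 126 background probe sets were at or above it. That lowest value was below the alternative limit of 84.8 from the 99th percentile of background.

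The ITAM adaptors Tyrobp and Fcer1g, and an Fc receptor that uses Fcer1g, were above the limit. Tyrobp, an adaptor that pairs with activating receptors of myeloid and natural killer cells, had 250, which is 5.38 times the limit. Fcer1g, the gamma chain shared by several Fc receptors, had 244, which is 5.25 times the limit. Fcgr3, a low-affinity receptor for immunoglobulin G that needs this gamma chain at the cell surface, had 278, which is 5.98 times the limit. None of these 3 intensities was reached by a background probe set. Each rests on a single probe set.

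The remaining surface receptors among the members were divided. Cd14, which hands bacterial lipopolysaccharide to the TLR4 receptor complex, had 227, or 4.88 times the limit. Mrc1, the mannose receptor of many tissue macrophages, had 16 on its only probe set, a log2 difference of -1.54 from the limit. A total of 52 of the 126 background probe sets were at or above that value. Adgre1, the adhesion receptor used as a pan-macrophage surface marker in mice, had 47 on its only probe set, an excess of 0.02 on the log2 scale over the limit. This excess is close to the 0.0153 by which rounding to whole numbers can move a value there, and 7 of the 126 background probe sets were at or above it. The call for Adgre1 therefore stands at the limit, whereas Mrc1 was not detectable above background with this probe set.

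The lysosomal members were all above the limit. Lyz2, the lysozyme of myeloid cells that attacks bacterial cell walls, had 2142, or 46.1 times the limit. Ctss, cathepsin S, a cysteine protease that trims the invariant chain for antigen presentation, had 730, or 15.7 times the limit. Cd68, a heavily glycosylated protein of the late endosome and lysosome membrane, had 334, or 7.18 times the limit. No background probe set reached any of these values.

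Most members cleared the limit by a wide margin. Past 4 times the limit, a level chosen after the values were seen, 8 of the 10 members remained, against 45.4% of all genes. Adgre1 and Mrc1 were the members that did not reach it.

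**Figure D2:**
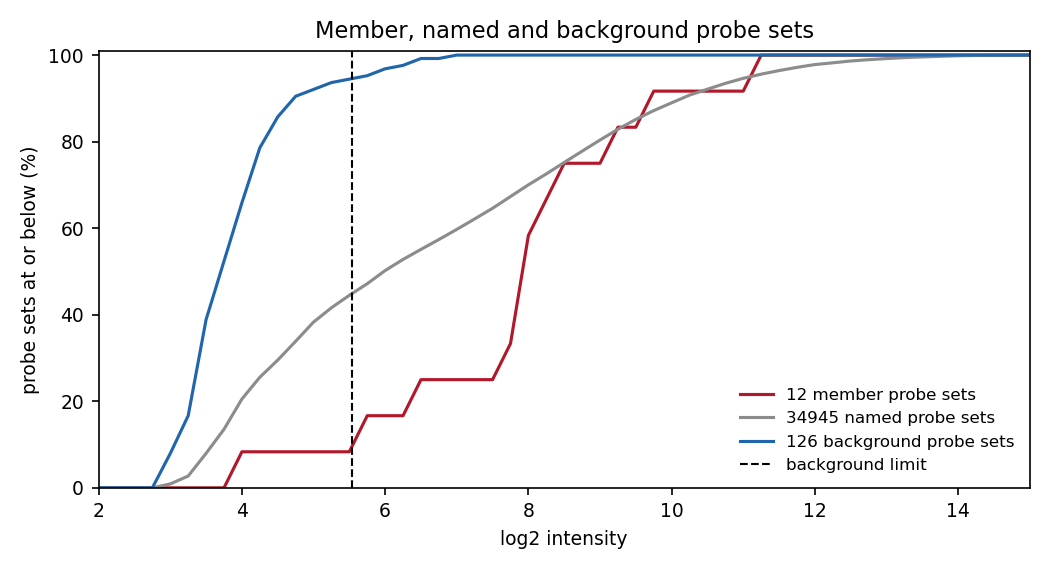
Cumulative share of probe sets, in percent, at or below each log2 intensity, drawn at steps of 0.25, for the 12 member probe sets, all 34945 named probe sets and the 126 background probe sets. The dashed line is the background limit at 5.54; 11 of the 12 member probe sets lie to its right, as do 55.1% of all named probe sets and 7 of the background ones.

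Promoters of the members were read from the RefSeq promoter table of build GRCm38.p6, which covers 250 bases before and 50 bases after a gene's start and held 6 of the 10 members, Fcgr3, Fcer1g, Mrc1, Ctss, Lyz2 and Cd68. PU.1, the product of Spi1, is a transcription factor of the myeloid lineage that binds purine-rich sites with the core GGAA. The letters AGGAAG, on either strand, were found in 5 of these 6 promoters, against 35.1% of 27025 promoters, 1 per gene. The longer AGGAAGT, which contains the first, was found in 3 of 6, against 9.57%. Both strings were chosen with these sequences in view. The 3 promoters with AGGAAGT are shown because they belong to members on both sides of the limit, Lyz2 at 2142, Ctss at 730 and Mrc1 at 16. Each is written 5′ to 3′ on the strand of its gene, and the capitals mark the match, which in all 3 reads as the reverse complement ACTTCCT.
Lyz2, chr10:117282223-117282522, minus strand: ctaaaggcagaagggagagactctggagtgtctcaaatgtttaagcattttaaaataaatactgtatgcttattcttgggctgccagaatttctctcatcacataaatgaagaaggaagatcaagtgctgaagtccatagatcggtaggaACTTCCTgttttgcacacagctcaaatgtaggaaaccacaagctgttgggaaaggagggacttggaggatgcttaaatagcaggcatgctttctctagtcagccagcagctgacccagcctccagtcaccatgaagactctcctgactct
Ctss, chr3:95526536-95526835, plus strand: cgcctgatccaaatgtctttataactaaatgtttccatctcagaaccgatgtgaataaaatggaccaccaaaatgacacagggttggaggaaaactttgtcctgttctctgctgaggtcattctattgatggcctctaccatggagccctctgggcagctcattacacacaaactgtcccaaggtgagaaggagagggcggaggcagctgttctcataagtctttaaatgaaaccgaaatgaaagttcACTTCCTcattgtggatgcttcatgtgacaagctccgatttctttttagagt
Mrc1, chr2:14229164-14229463, plus strand: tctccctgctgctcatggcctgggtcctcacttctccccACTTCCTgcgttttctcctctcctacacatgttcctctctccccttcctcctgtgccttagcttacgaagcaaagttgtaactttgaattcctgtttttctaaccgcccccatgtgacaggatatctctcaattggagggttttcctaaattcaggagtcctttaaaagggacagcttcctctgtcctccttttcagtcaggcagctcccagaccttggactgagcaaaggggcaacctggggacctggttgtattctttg
In Lyz2 the match ended 93 bases before the annotated start, in Mrc1 it ended 204 bases before it, and in Ctss it spanned the start. The string was thus present in a member below the limit as well as in members above it. A match is a description of these letters and does not show that a factor binds there. Spi1 itself had 61 on its only probe set, 1.31 times the limit of 46.5. This value was below the alternative limits of 64.2 from other-organ genes and 84.8 from the 99th percentile of background.

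Ligands and lineage factors around the CSF1 receptor passed the limit in 8 of 11 measured cases, or 72.7%, against 62.8% of all genes. Csf1, the main ligand, had 4 probe sets from 125 to 1174, and Il34, the second ligand, had 123. Csf2, a growth factor of granulocytes and macrophages, had 23. The alpha chain of its receptor, Csf2ra, had 64 and 287, and the beta chain, Csf2rb, had 20 and 24. Of the lineage factors, Cebpb, which myeloid cells share with many others, had 1688 and 5611, and Irf8, a factor of monocytes and dendritic cells, had 20 and 36. Maf, Runx1 and Cebpa, the other factors listed beside Spi1, reached 6828, 420 and 95, all above the limit. Ligands and receptor of the CSF1 pair were therefore all above the limit in this preparation, while Csf2, the beta chain of its receptor and Irf8 were not. The cell that made each transcript cannot be read from a mixed sample.

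Receptors that pair with the adaptors Tyrobp and Fcer1g, and the kinases and linkers downstream, passed in 3 of 14 measured cases. This is 21.4%, against 62.8% of all genes. The 3 were Trem2, Syk and Plcg2. Trem2, a lipid-sensing receptor that needs Tyrobp, had 217 on a probe set whose identifier marks shared probes and 21, below the limit, on its plain one. Syk, the kinase that docks on phosphorylated ITAMs, had 197 and 442 on 2 of its 4 probe sets, and Plcg2, a phospholipase that acts after it, had 105. Trem1, Clec5a and Sirpb1a, other receptors that use Tyrobp, had at most 45, 20 and 37. Btk and Vav1, further signalling proteins of blood cells, had 37 and at most 26, and Lcp2, an adaptor of the same chain, had at most 19. The list is sensitive to where the limit is set: with the 90th percentile of background, an intensity of 25.5, 11 of its 14 genes passed, and 1 did when genes were judged by their dimmest probe set. Without marked probe sets 2 of 14 passed.

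Among Fc receptors other than Fcgr3, 2 of 7 passed, or 28.6%, against 62.8% of all genes. Fcgr2b, the inhibitory receptor for immunoglobulin G, passed on 4 of 5 probe sets with 93 to 287, all with marked identifiers, while its plain probe set had 8. Without marked probe sets 1 of the 7 Fc receptors passed. Fcgrt, the neonatal Fc receptor of many epithelia and endothelia, had 1167. Fcgr1, the high-affinity receptor of macrophages and monocytes, had at most 38, and Fcgr4 had 44, just under the limit. Fcer1a and Ms4a2, the mast cell and basophil subunits that form the IgE receptor with Fcer1g, had 11 and at most 14. The signal for Fcer1g was thus accompanied by that for Fcgr3, while Fcgr1, Fcgr4 and the IgE receptor partners were all below the limit.

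The partners of Cd14 were nearly all above the limit, in 8 of 9 measured cases, or 88.9%, against 62.8% of all genes. Tlr4, the lipopolysaccharide receptor, had 193 and 304 on 2 of its 4 probe sets. Ly96, its co-receptor, had 362, and Myd88, the adaptor of most Toll-like receptors, had 734. Tlr2, a receptor for bacterial lipoproteins, had 148. Cd180, a related receptor of B cells and macrophages, had 16 and was the exception. These receptors and adaptors are also made by epithelial and stromal cells, so their presence does not mark a macrophage.

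Lysosomal genes passed in all 13 measured cases, against 62.8% of all genes. Ctsl and Ctsb, cathepsins of most cell types, reached 16828 and 10246, and Cst3, a secreted cathepsin inhibitor, had 5902. Ctsk, a protease of osteoclasts and fibroblasts, had 207, and Gpnmb, a membrane protein of lipid-laden macrophages and pigment cells, had 12 and 86. Most of this list is active in all cells, and Ctss and Cd68 are its lysosomal counterparts of narrower expression. Lyz1, the paralogue of Lyz2 made by Paneth cells of the gut, had 3882 and 1736 on 2 probe sets whose identifiers mark possible cross-hybridisation and 21 on a remaining set with a plain identifier. The plain probe set was below the limit, whereas the marked ones were far above it. How far the marked probe sets also bound Lyz2 transcripts was not tested.

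Scavenger and lectin receptors passed in 6 of 14 cases, or 42.9%, against 62.8% of all genes. Mertk and Axl, receptors for apoptotic cells, had 699 and 3695, and Axl is also widely made by fibroblasts and mesothelium. Judged by their dimmest probe sets, 2 of the 14 passed. Msr1, a macrophage scavenger receptor, passed on 3 of 4 probe sets with 68 to 130. Clec7a, the beta-glucan receptor dectin, had 84, and Siglec1, a sialic acid receptor of resident macrophages, had 63 on 1 of 3 probe sets, a marked one. Mrc2, the collagen-binding relative of Mrc1 that fibroblasts make, had 297 and 27. Cd163, Marco, Stab1, Clec10a and Cd209a, which are found on subsets of tissue macrophages, had at most 10, 38, 39, 14 and 21. Mrc1 at 16 was thus accompanied by low values of several other uptake receptors. Mertk, Msr1, Clec7a and Siglec1 of the same list were above the limit. Which macrophage subsets were present was not tested.

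**Figure D3:**
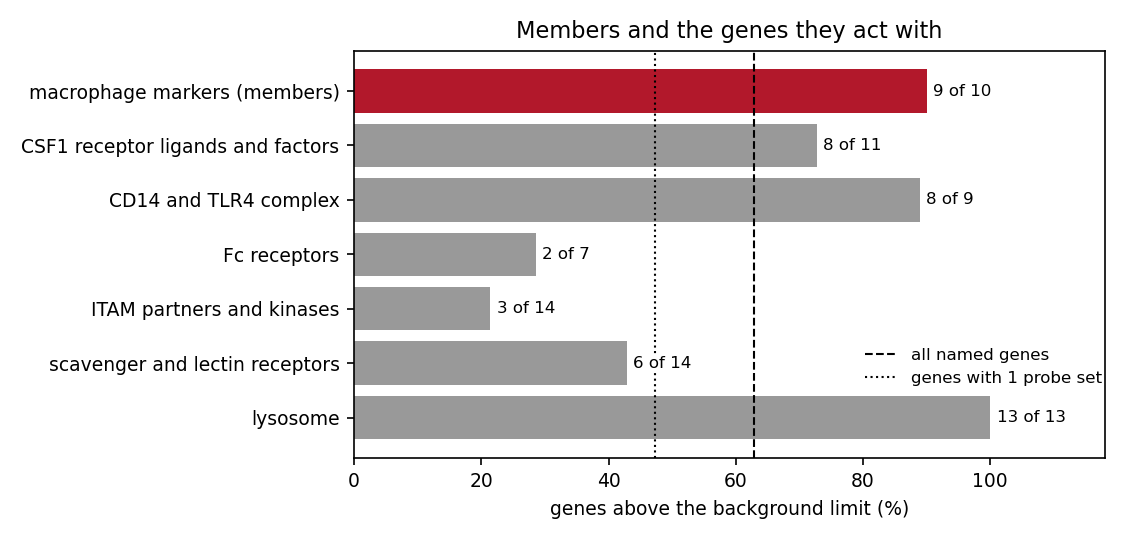
Share of measured genes above the background limit, in percent, for the 10 members and for 6 lists of genes that act with them, with the number of genes beside each bar. The dashed line is the share of all named genes, 62.8%, and the dotted line that of genes with 1 probe set, 47.3%; ITAM partners (3 of 14), Fc receptors (2 of 7) and scavenger receptors (6 of 14) end to the left of both.

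Other macrophage genes that were not members passed in 12 of 19 measured cases, or 63.2%, against 62.8% of all genes. C1qa, C1qb and C1qc, the chains of the complement component that tissue macrophages secrete, reached 244, 361 and 179, and all 3 probe sets of C1qb were above the limit. Cx3cr1, the fractalkine receptor, had at most 40, and Aif1, an actin-binding protein of macrophages, had 27. Past 4 times the limit, 5 of the 19 remained, or 26.3%, against 45.4% of all genes. These were C1qa, C1qb, Mpeg1, Lgals3 and Apoe. The last 3 were named after their values were seen. Mpeg1, a pore-forming protein of macrophages, had 299, while Lgals3 and Apoe, which many other cells also make, had 3434 and 5068. Beside Cx3cr1 and Aif1, the genes of this list below the limit were Itgam, Itgax, Cd84, Ms4a6c and Slc11a1. Also named after their values were seen, they had 22, 28, at most 34, at most 25 and 45.

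Genes of most white blood cells passed in 10 of 14 cases, or 71.4%, against 62.8% of all genes. Of these 10, 5 lay within a factor of 2 above the limit. Ptprc, the phosphatase carried by nearly all white cells, had 70 on 1 probe set and 14 on the other. Laptm5, a lysosomal membrane protein of blood cells, passed on 4 of 5 probe sets with at most 112, and Coro1a, an actin regulator, passed on 1 of 3 with 82. Cd52 and Cd53, small surface proteins of white cells, reached 473 and 184. Past 4 times the limit, 2 of the 14 remained, or 14.3%, against 45.4% of all genes. They were Cd52 and, outside the rule for named genes, Arhgdib at 712. Below the limit, and also outside that rule, were Cd48 at 24, Cd37 at most 19, Rac2 at most 41 and Was at 16.

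Markers of other white cells that share some of the members were mostly at background. Of 32 measured genes in the neutrophil, T and NK, B and mast cell lists, 5 passed the limit. This is 15.6%, against 62.8% of all genes. Past 4 times the limit 1 of the 32 remained, against 45.4% of all genes. Neutrophils make several of the same genes, and 1 of 8 of their markers passed, Camp, an antimicrobial peptide precursor, at 60. S100a8, S100a9, Csf3r, Mpo and Elane had 13, 12, 17, 20 and 20. Of the T and NK cell markers 3 of 10 passed, Cd4 at 62, Cd8a at 67 and Zap70 at 307, each on 1 of its probe sets, while Cd3e, Cd3d and Cd3g, signalling chains of the T cell receptor, had 46, 39 and 10. Of the B cell markers 1 of 7 passed, Ighm, with 78 and 131 on 2 of its 11 probe sets, both marked. Cd79a, Cd79b, Ms4a1, Pax5 and Blk had at most 20, 15, 14, 23 and 24. None of 7 mast cell markers passed, and Kit, Cpa3, Mcpt4, Tpsb2 and Cma1 had at most 19, 15, 16, 30 and 23. Their part in the values of the members was not tested.

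Monocyte, dendritic cell and cavity macrophage genes were divided. The shares above the limit were 62.5% for monocyte, 41.7% for dendritic cell, 58.3% for cavity macrophage and 50% for activation genes. The share of all genes was 62.8%. Monocyte genes passed in 5 of 8 measured cases, with Ccr2, the receptor that draws monocytes into tissue, at most 35, Chil3 at 9 and Treml4 at 11. The 5 that passed were Plac8 at 465, Nr4a1, which many stimulated cells induce, at 222, Ace and Vcan at 120 and 84 on their brightest probe sets, and F13a1 at 48, next to the limit. Dendritic cell and class II genes passed in 5 of 12 cases: H2-Aa, H2-Ab1, H2-Eb1 and Cd74, the chains of class II molecules and their invariant chain, reached 102, 151, 92 and 117, and Zbtb46 had 213. Every passing probe set of H2-Aa, H2-Ab1 and Cd74 has a marked identifier. Without marked probe sets 2 of 9 measured genes passed, and with the lowest probe set 3 of 12. Ciita, the activator of class II genes, had at most 24. Genes of peritoneal cavity macrophages passed in 7 of 12 cases. Gata6, a factor of these macrophages that mesothelial cells also make, had 3 probe sets from 90 to 5024. Icam2, an adhesion molecule that endothelium also makes, passed at 77, and Timd4, Alox15 and F5 did not, with 13, 26 and at most 11. Genes of macrophage activation passed in 6 of 12 cases. Arg1, an arginine-degrading enzyme, had 588, and Retnla, Mgl2, Nos2 and Il12b had 20, 12, 46 and at most 12. The other 5 that passed, named after their values were seen, were Ccl2 at 2344 and Ptgs2 at 2011 on its brightest probe set, which many stimulated cells make, and Il1b, Il6 and Cxcl2 at 58, 62 and 54. Against the 99th percentile of background, 84.8, 3 of the 12 passed.

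The markers of the labelled cell type were present. Of all genes, 62.8% passed the limit and 45.4% passed 4 times the limit. All 12 mesothelium and surface epithelium markers passed 4 times the limit, with Krt8, Krt18, Krt19, Krt7 and Upk3b at up to 4573, 3377, 4897, 8204 and 20836. Fibroblast markers passed in 9 of 10 cases, with Col1a1, Col1a2, Col3a1, Dcn and Lum at up to 8290, 29972, 22640, 15048 and 307. Endothelial markers passed in 2 of 10, Kdr at 1813 and Egfl7 at up to 212, the second on marked probe sets. Pecam1, Cdh5, Tek and Tie1 had at most 14, 23, 21 and 13. Transcripts of the macrophage markers were thus measured beside those of epithelial and fibroblast-type genes, and which cells carried them was not measured.

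**Figure D4:**
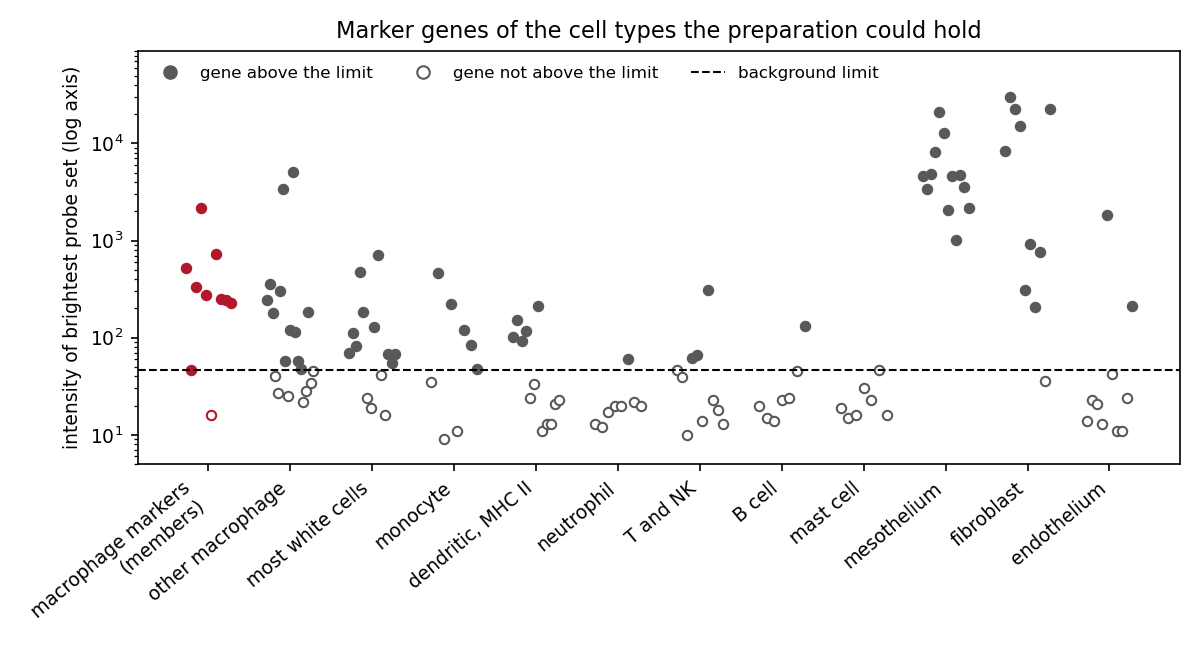
Intensity on a log axis of the brightest probe set of each marker gene, for the 10 members at the left and for lists of other cell types the preparation could hold. Filled points are above the dashed background limit of 46.5. The neutrophil, T and NK, B and mast cell lists have 5 of 32 genes above it, and all 12 mesothelium markers lie above it. Of all named genes, 62.8% lie above it.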

How the data were processed

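Total RNA of 1 wild-type sample was extracted with a column kit and made into biotin-labelled cRNA for an Affymetrix array, per the labels' protocols. The authors deposited an intensity for each of 45101 probe sets. They used affy and RMA, per the submitters' processing notes, with no version and no statement of which arrays entered the normalization. Although RMA output is commonly in log2 units, the deposited intensities were all whole numbers between 6 and 32341 (median 41), and how they were turned back to a linear scale is not stated. RMA compresses low intensities, which can narrow margins near the limit.

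Intensities were put on the log2 scale and probe sets named through the platform annotation; the gene numbers of all 10 members matched RefSeq. A gene's level was its brightest probe set. Members and lists were chosen with earlier results of these data known. Named genes were all members, genes of the 6 lists tied to their roles, and the first 5 measured genes of every other list, plus those above the limit where 5 or fewer were; others are named as chosen later. Counting was run on simulated lists whose levels were set clear of the limit, which checks the code and not the calls near the limit. No test was run, since 1 array has no replicate. An array has no read depth. Alternatives changed the percentile, the background genes, the probe set used and the marked probe sets. Software was pandas 2.3.3, NumPy 2.4.6 and matplotlib 3.10.9 under Python 3.11.15.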

Additional observations from a re-analysis of the deposited data

Results flagged for a closer look

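Probe sets outside all gene counts carried signal: 1613 of 9160 probe sets with no gene symbol, or 17.6%, exceeded the background limit, as did 553 of 932 with several symbols, or 59.3%. None of those with several symbols included a macrophage marker of the report.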

How the results depend on the processing

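Under 8 other settings the count of members above background was 8 or 9 of 10 (8 of 9 without marked probe sets), and under the 6 that use single probe sets 8 to 11 of their probe sets passed (8 of 9 without marked ones). Adgre1 was the member whose call changed: it was lost at the 99th percentile (limit 84.8), against other-organ genes (64.2) and against Y-linked genes (47), and Adgre1 has no probe set left without marked ones. Mrc1 stayed below the limit and the remaining 8 members above it in each setting. Counts of other lists moved by over 1.5 times as follows, and the cause was not tested. At the 90th percentile, and against olfactory and vomeronasal receptors, T and NK markers had 5 of 10 above, B cell 2 of 7 and mast cell 2 of 7. At the 99th percentile, genes of most white cells had 5 of 14, neutrophil 0 of 8 and T and NK 1 of 10; against other-organ genes neutrophil had 0 of 8. With the mean probe set T and NK had 1 of 10 and B cell 0 of 7, and with the lowest probe set T and NK 0 of 10, B cell 0 of 7 and most white cells 3 of 14. Without marked probe sets B cell had 0 of 7. Past 4 times the limit, chosen after the values were seen, other macrophage genes had 5 of 19, most white cells 2 of 14, neutrophil 0 of 8, T and NK 1 of 10 and B cell 0 of 7. Of the lists not named so far, Fc receptors had 4 of 7 at the 90th percentile and against olfactory and vomeronasal receptors, and 1 of 7 with the lowest probe set; the ITAM list had 8 of 14 against those receptors; monocyte genes had 3 of 8 at the 99th percentile, activation genes 3 of 12 against other-organ genes and endothelium 1 of 7 without marked probe sets. The lysosome list had 8 of 9 there, where fewer genes were measured. Past 4 times the limit, CSF1 receptor partners had 5 of 11, scavenger receptors 3 of 14, monocyte genes 2 of 8, dendritic cell genes 1 of 12 and activation genes 3 of 12. Other moves stand beside the lists in the results. No paired analysis was possible because there is 1 sample, and for that reason no replicate was left out.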
